A study of Mus musculus with 12 samples.

Results

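Gene expression in untreated TM3 cells was compared between 24 h and 3 h of culture. TM3 is a Leydig cell line from the testis of immature Balb/c mice. The cells had grown in DMEM-F12 medium with horse serum and fetal bovine serum to about 60% confluence and then stayed in culture medium alone, as the controls of a study of methoxyacetic acid (MAA), for 3, 8 or 24 h. The cells compared here received no agent, and the labels set the groups apart by time alone. Each of the 12 samples of the series is a 2-colour Agilent array that paired RNA of MAA-treated cells (1 mM or 5 mM) with RNA of untreated cells of the same time. The control channel was used alone, red on replicate 1 and green on replicate 2, of the 4 arrays at 24 h and the 4 at 3 h, which is 8 of the 12 samples. The 4 arrays at 8 h entered the normalization and 1 alternative fit, but not the test reported here.

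Leydig cells lie between the seminiferous tubules and make testosterone from cholesterol under the control of luteinizing hormone. TM3 cells are an established line that grows as a monolayer, and monolayer cultures slow their cycling as they fill the dish. In growing cells, E2F transcription factors drive the genes of DNA replication, MYC drives the genes that build ribosomes, and SREBP2 drives cholesterol synthesis when sterols run low. Feeding with serum briefly switches on immediate early genes such as Fos and Egr1, and contact between cells changes the genes of the matrix and of secreted growth factors. These are general features of cultured cells and were not measured here.

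The paper describes pools of 3 cultures for RNA of MAA-treated cells, and does not state separately how control RNA was pooled. The labels do not say whether the 1 mM and 5 mM arrays of a time and replicate number had the same control pool. Over the probes tested, spread was taken as the scaled median absolute deviation of log2 differences between pairs of control channels. It was 0.064 to 0.098 for the same time and number, and 0.168 to 0.206 for the same time and other number. For 3 h and 24 h of the same number it was 0.601 to 0.673. Channels of other number also differed in dye and slide, so these values cannot show which arrays shared a pool. The 4 arrays of a time were counted as 2 pools, 1 for each replicate number, which is an assumption. The pool was a random block, and p-values measure the spread between these arrays and assumed pools, which may be technical. Between 61.5% and 65.4% of probes were well above background at 3 h and between 65.2% and 70.5% at 24 h, with median signals of 53 to 80.5 and 80.2 to 114, respectively. The part of this difference in signal in the results was not tested. All 3 slides held arrays of both times, and arrays of the same dose and number lay on the same slide, which gives 4 same-slide pairs of 24 h and 3 h.

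The transcriptome of untreated cells differed widely between 3 h and 24 h. Genes of DNA replication, mitosis and ribosome biogenesis were lower at 24 h, as were Nqo1, Gclc, Gclm and Hmox1, known targets of NRF2. Other known NRF2 targets, Gstm1 and Gstm2, were higher. Cholesterol synthesis genes, many matrix genes, Id1, Id2, Id3, Egr1, Fos and Ccn1 were higher. Of 27186 probes tested, 18744 (68.9%) were called at a Benjamini-Hochberg adjusted p under 0.05 (limma), 9005 (33.1%) of them higher and 9739 (35.8%) lower at 24 h. Averaging arrays of both doses first, so that each time had 2 averages, called 6160 probes higher and 7089 lower. With 1 probe per gene, 4074 of 11527 genes (35.3%) were higher and 4339 (37.6%) lower. A called difference over 2-fold was seen for 1063 genes (9.22%) upward and 679 genes (5.89%) downward. Since most probes were called, sizes are given throughout. Differences are log2 levels at 24 h minus 3 h, with the SE of the fit to 4 arrays at each time, and levels are quantile-normalized log2 signals, which are comparable between arrays but not between genes. The median difference over all probes was -0.03. Where the channels were set to the same median in place of quantile normalization, that median was -0.27 and 29.7% of called probes were higher, against 48% in the main setting, so small increases depend on the scaling. Over 2-fold, 2367 probes were higher and 1713 lower in the main setting, but 1970 were higher and 2975 lower with channels set to the same median, so the excess of large increases over large decreases was turned round by the scaling.

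**Figure D1:**
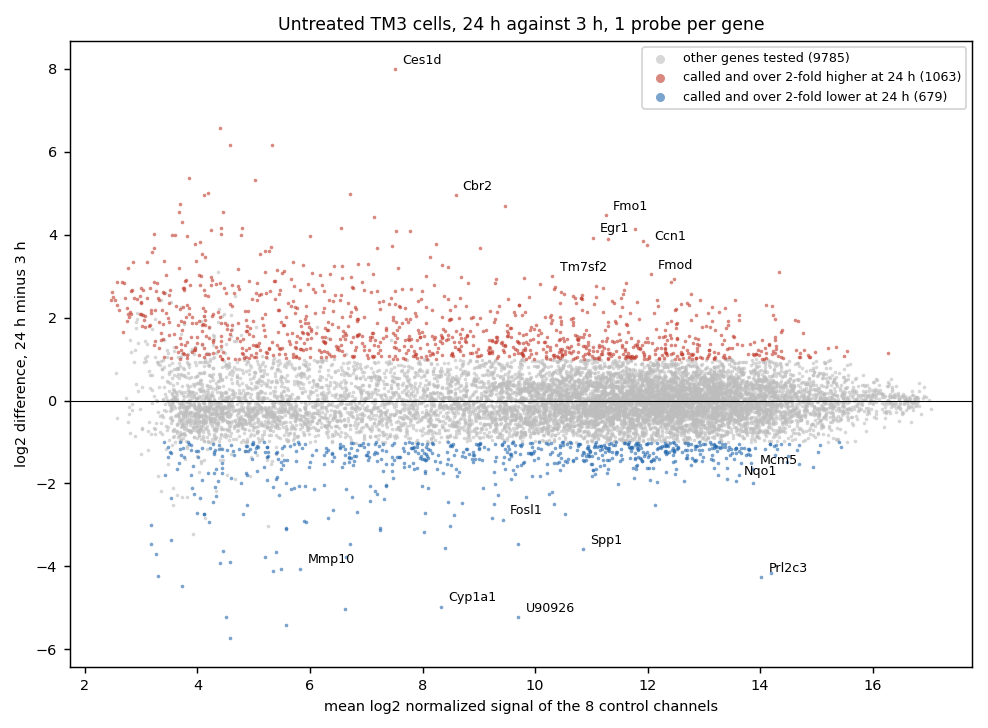
Log2 difference between 24 h and 3 h (y axis) against the mean log2 normalized signal of the 8 control channels (x axis), 1 point per gene, with called genes over 2-fold in colour. Differences over 2-fold occur across the range of signals, upward in 1063 genes and downward in 679 after quantile normalization.

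Among genes measured above background on all 8 control channels, with no overlap between the arrays of the 2 times, the 10 largest increases were those of Cbr2, Cmbl, Fmo1, Prelp, Ptn, Scrg1, Aoc3, Egr1, Slc16a4 and Aqp1. Their differences ran from 3.84 for Aqp1, a water channel, to 4.96 for Cbr2, a carbonyl reductase. Values are listed here and below in the order 1 mM array replicates 1 and 2, then 5 mM array replicates 1 and 2, where the dose is that of the MAA cells on the other channel. Cbr2 lay at 6.36, 6.04, 6.05 and 5.98 at 3 h, 8.41, 8.35, 8.63 and 8.32 at 8 h and 10.99, 10.96, 11.22 and 11.10 at 24 h, so that it rose in both intervals. Fmo1, a flavin monooxygenase that oxidizes drugs, lay at 8.84, 9.29, 8.73 and 9.22 at 3 h and 13.54, 13.49, 13.45 and 13.50 at 24 h, differing by 4.48 ± 0.11 (adjusted p = 6.02e-07). Ptn encodes pleiotrophin, a secreted heparin-binding growth factor, and lay at 9.76, 9.74, 9.70 and 9.64 at 3 h and 13.85, 13.86, 13.83 and 13.87 at 24 h, differing by 4.14 ± 0.05. All arrays of a time lay close together for these genes, and the 8 h arrays fell between the other times. Cmbl, a hydrolase, rose by 4.69 ± 0.14 and Prelp, a leucine-rich repeat protein of the matrix, by 4.43 ± 0.10. Aoc3, an amine oxidase of the cell surface, rose by 4.09 ± 0.19, Slc16a4, of the monocarboxylate transporter family, by 3.90 ± 0.04, and Scrg1 by 4.10 ± 0.13.

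The 10 largest decreases by the same rule were those of U90926, Pglyrp3, Cyp1a1, Prl2c3, Prl2c5, Mmp10, Itgb7, Gsta2, Spp1 and Dppa5a, from -5.23 to -3.55. U90926 lay at 12.43, 12.22, 12.43 and 12.19 at 3 h, 12.36, 12.29, 12.37 and 12.31 at 8 h and 6.96, 7.28, 7.11 and 7.0 at 24 h, so the decrease came after 8 h. Cyp1a1, a cytochrome P450 and the classic target of the aryl hydrocarbon receptor, lay at 10.61, 10.97, 10.66 and 11 at 3 h, 7.69, 7.79, 7.50 and 7.69 at 8 h and 5.87, 6.01, 5.77 and 5.72 at 24 h. Most of its decrease lay between 3 h and 8 h. Spp1, which encodes the secreted matrix protein osteopontin, lay at 12.88, 12.40, 12.87 and 12.40 at 3 h, 12.72, 12.74, 12.70 and 12.69 at 8 h and 9.10, 8.99, 9.14 and 8.98 at 24 h. Like U90926, it was as high at 8 h as at 3 h, and the same held for Itgb7, an integrin beta chain (-3.77 ± 0.13). Prl2c3 and Prl2c5 encode proliferins, prolactin-like proteins of growing cells, and fell by 4.26 and 4.17 on the log2 scale, nearly all of it after 8 h. These genes are near-identical copies, and their probes may read the same transcripts. Pglyrp3, a peptidoglycan recognition protein (-5.04 ± 0.11), fell in both intervals, and Mmp10, a stromelysin that degrades matrix (-4.06 ± 0.20), was near its 24 h level by 8 h. Gsta2, an alpha glutathione S-transferase (-3.65 ± 0.27), and Dppa5a, an RNA-binding protein of embryonic stem cells (-3.55 ± 0.08), complete the set. The 24 h levels of Pglyrp3 (4.09), Mmp10 (3.80) and Gsta2 (3.57) were near background, which may limit the sizes of their decreases. Mmp10 was near background at 8 h as well (4.08), so its course after 8 h may be limited too.

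**Figure D2:**
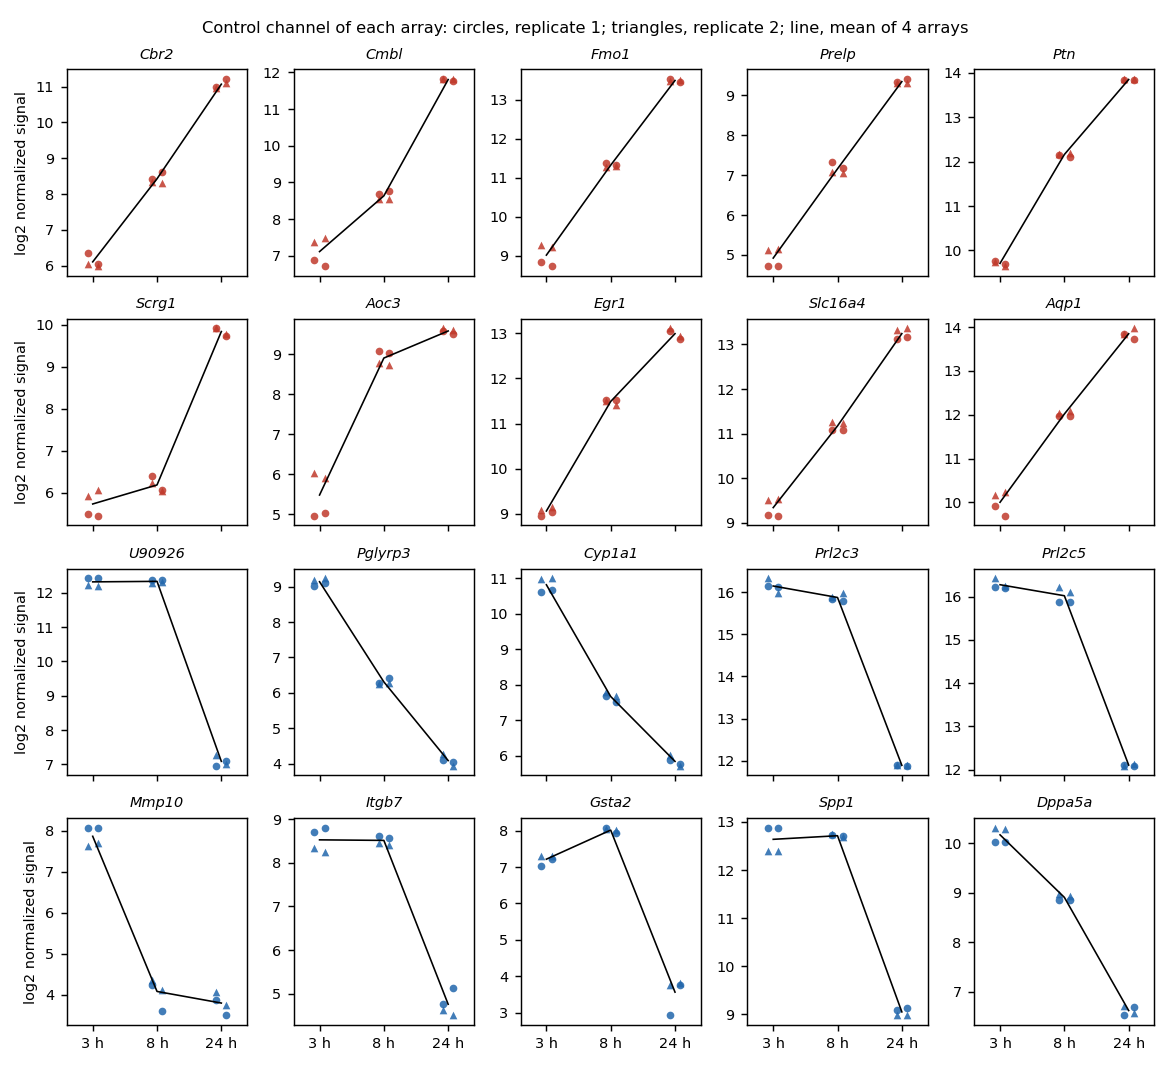
Log2 normalized signal (y axis) of the 10 genes that rose most and the 10 that fell most by the rule above, 1 point per control channel at 3, 8 and 24 h. The 3 h and 24 h points are apart for every gene shown, since the genes were chosen so, while the 8 h points of U90926, Spp1, Itgb7, Prl2c3 and Prl2c5 lie near the 3 h level.

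Some genes were above background at only 1 of the times, and for these a fold is a lower limit. They passed the filter on dim probes through the arrays of 1 time alone, so no test is given. It sets the mean of the bright arrays against the dim arrays, each taken at its own signal or at the lowest signal well above background on that array, whichever was higher. Ces1d, a carboxylesterase, was not well above background on any 3 h array and lay at 11.46, 11.55, 11.46 and 11.56 at 24 h, at least 205-fold higher. It is 1 of a cluster of similar genes, so its probe may read related transcripts. Agtr2, the type 2 angiotensin receptor, was at least 23.7-fold higher at 24 h, Popdc3 at least 14.6-fold, and Fxyd1, a regulator of the sodium pump, at least 14.4-fold. In the other direction, Krtap1-5, a keratin-associated protein, was at least 23.9-fold lower at 24 h. Mcpt8, a mast cell protease, was at least 18.9-fold lower, Vmn1r42, a vomeronasal receptor, at least 11.3-fold and the germline gene Tex19.1 at least 9.25-fold. The 8 h arrays lay between the other times for all 8 of these genes.

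The course over time was examined with the 8 h arrays, which the comparison did not use. Of the 2367 probes called over 2-fold higher at 24 h, 84.2% had an 8 h mean between the 3 h and 24 h means, with a median of 53.8% of the difference reached at 8 h. Of the 1713 probes called over 2-fold lower, 89.3% lay between, with a median of 41.6% reached. Gene groups departed from this course in both directions, as given below. The groups are 24 pathway lists and 7 lists of cell type markers. The pathway lists name 675 genes, of which 639 were on the array and 609 were tested, and their counts are to be read against the shares of all genes called. Of the tested members 3 were above background on no 3 h array and passed the filter through the 24 h arrays alone, 1 each in the matrix, fatty acid oxidation and interferon lists. A group median is given with the lowest and highest median over the 4 same-slide pairs. With channels set to the same median, the medians of all 24 pathway lists were lower than those given.

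**Figure D3:**
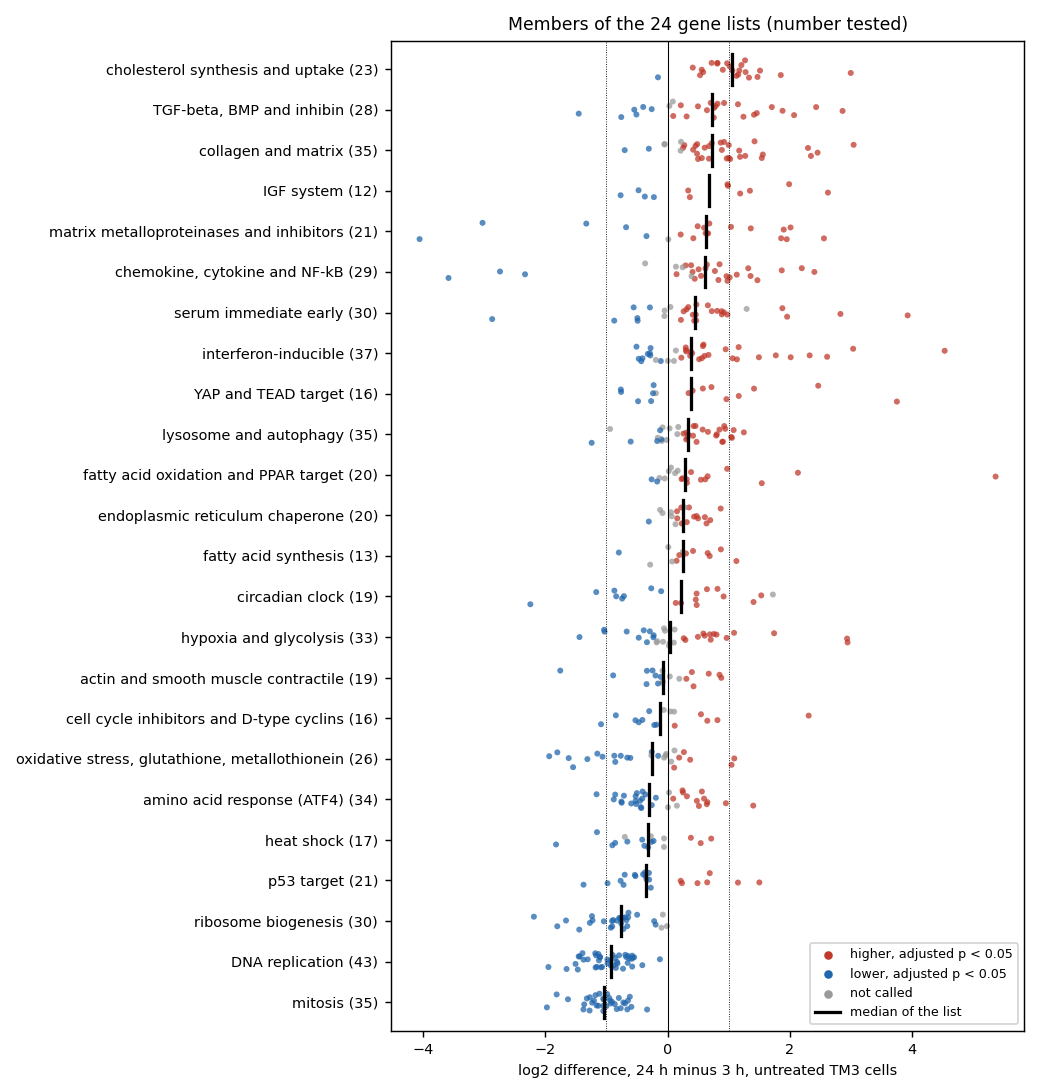
Log2 difference between 24 h and 3 h (x axis) of every tested member of the 24 pathway lists, 1 point per gene, with the median of each list marked. All members of the replication and mitosis lists lie below 0, and 22 of 23 cholesterol genes lie above 0.

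Genes of DNA replication were lower at 24 h throughout. All 43 tested members fell, 19 of them over 2-fold, with a median of -0.93 (-1.04 to -0.88). In all tested genes 37.6% fell. Mcm5, a subunit of the replicative helicase, lay at 14.79, 14.58, 14.78 and 14.58 at 3 h, 14.26, 13.97, 14.26 and 13.98 at 8 h and 13.15, 12.93, 13.15 and 12.88 at 24 h, with a difference of -1.65 ± 0.03 (adjusted p = 3.41e-07). The arrays of the 3 times did not overlap, and 8 h was in between. Mcm10, which loads onto the helicase at initiation, fell most (-1.95 ± 0.04). The origin binding subunit Orc1 fell as well (-1.51 ± 0.04). The polymerase subunits Pola2 (-1.46 ± 0.08) and Pole (-1.44 ± 0.06) followed. The E-type cyclins Ccne1 (-1.09 ± 0.04) and Ccne2 (-1.13 ± 0.03), which start S phase, fell by similar sizes. The smallest decreases were those of E2f1 (-0.41 ± 0.05) and Orc6 (-0.13 ± 0.04), and Orc6 was not called with arrays averaged by pool. At 8 h the list stood at a median of -0.41 against 3 h.

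E2F factors bind the promoters of replication genes, and the E2F letters TTTCGCGC, TTTGGCGC and TTTCCCGC were searched for on both strands of the 250 bases before the start of each gene. In RefSeq promoters of build GRCm38.p6, 8 of the 36 replication genes with a promoter in the table held a match (22.2%), as did 1.78% of all 27025 genes. Here and for the motifs below, all genes means every gene with a promoter, tested or not. List members were all tested, so these shares are not like for like, and no share was computed over tested genes alone. The paper found its own promoter motifs enriched against genes not expressed in TM3 cells, but not against expressed genes that did not respond. The promoter of Mcm5, chr8:75109259-75109508 on the plus strand, is shown because this gene had the second largest decrease of the list. Capitals mark 2 overlapping matches, on opposite strands. A match describes letters in this window and is not a measured binding site.
Mcm5: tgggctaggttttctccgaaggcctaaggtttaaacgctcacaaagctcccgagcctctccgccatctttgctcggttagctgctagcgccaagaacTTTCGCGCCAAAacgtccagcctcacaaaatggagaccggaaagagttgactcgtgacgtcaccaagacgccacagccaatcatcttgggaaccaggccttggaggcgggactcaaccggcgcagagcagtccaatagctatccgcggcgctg

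Mitosis genes were also lower at 24 h, and their decrease came after 8 h. All 35 tested members fell, 19 over 2-fold, with a median of -1.05 (-1.06 to -1.01). At 8 h the median was 0.06 against 3 h, and 21 of 35 members were above their 3 h level. All 35 were lower at 24 h than at 8 h. Ccnb1, the B-type cyclin that drives entry into mitosis, lay at 14.14, 14.09, 14.17 and 14.13 at 3 h, 14.05, 14.01, 14.12 and 14.09 at 8 h and 12.88, 12.72, 12.89 and 12.74 at 24 h, with a difference of -1.32 ± 0.04 (adjusted p = 9.86e-07). The 3 h and 8 h arrays overlapped for this gene, and the 24 h arrays lay below both. The centrosomal kinase Nek2 (-1.98 ± 0.04), cyclin F encoded by Ccnf (-1.82 ± 0.05) and Foxm1, a transcription factor of mitotic genes (-1.63 ± 0.07), fell most. The mitotic kinases Plk1 (-1.27 ± 0.04), Aurka (-1.18 ± 0.05) and Aurkb (-0.99 ± 0.06) fell as well. Cdk1, the kinase partner of Ccnb1, lay at 14.48, 14.45, 14.49 and 14.39 at 3 h and 13.90, 13.80, 14 and 13.74 at 24 h, and its decrease of 0.59 was among the smallest of the list. Cks2 had the smallest decrease (-0.34 ± 0.06).

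Mitotic promoters are known for the CHR element and the CCAAT box. The CHR letters TTTGAA or TTCGAA were found in the promoters of 12 of 28 mitosis genes (42.9%), against 19.6% of all genes, and CCAAT in 23 of 28 (82.1%), against 37.5%. The promoter of Ccnf, chr17:24251410-24251659 on the minus strand, is shown as a mitosis gene with CHR letters near the start. Capitals mark 2 separate CHR matches.
Ccnf: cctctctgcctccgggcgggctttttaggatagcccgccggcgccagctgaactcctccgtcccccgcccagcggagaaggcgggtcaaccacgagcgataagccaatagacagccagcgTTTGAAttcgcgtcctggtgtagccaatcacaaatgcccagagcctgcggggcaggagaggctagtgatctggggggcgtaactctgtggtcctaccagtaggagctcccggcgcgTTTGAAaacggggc

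Ribosome biogenesis genes fell early. Of 30 tested members 27 fell, 8 of them over 2-fold, and none rose, with a median of -0.77 (-0.79 to -0.77), of which -0.65 was present at 8 h. Rrp12, an assembly factor of ribosomal subunits, lay at 8.22, 8.15, 8.33 and 8.31 at 3 h, 6.71, 6.65, 6.83 and 6.68 at 8 h and 6.23, 6.02, 6.12 and 5.89 at 24 h, with a difference of -2.19 ± 0.09. Most of its decrease lay between 3 h and 8 h. The snoRNP protein Nhp2 (-1.81 ± 0.05), Heatr1 (-1.66 ± 0.05) and Rrp9 (-1.45 ± 0.05), which act in processing of ribosomal RNA, and the RNA polymerase I subunit Polr1a (-0.91 ± 0.04) also fell. Odc1, the rate-limiting enzyme of polyamine synthesis and a MYC target, fell too (-0.83 ± 0.03). Npm1 (-0.10 ± 0.10), Npm3 (-0.01 ± 0.03) and Tsr1 (-0.08 ± 0.04) did not pass the test. Myc itself differed by -0.05 ± 0.04 and did not pass. The E-box CACGTG was found in the promoters of 1 of 24 members (4.17%) and of 6.86% of all genes.

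**Figure D4:**
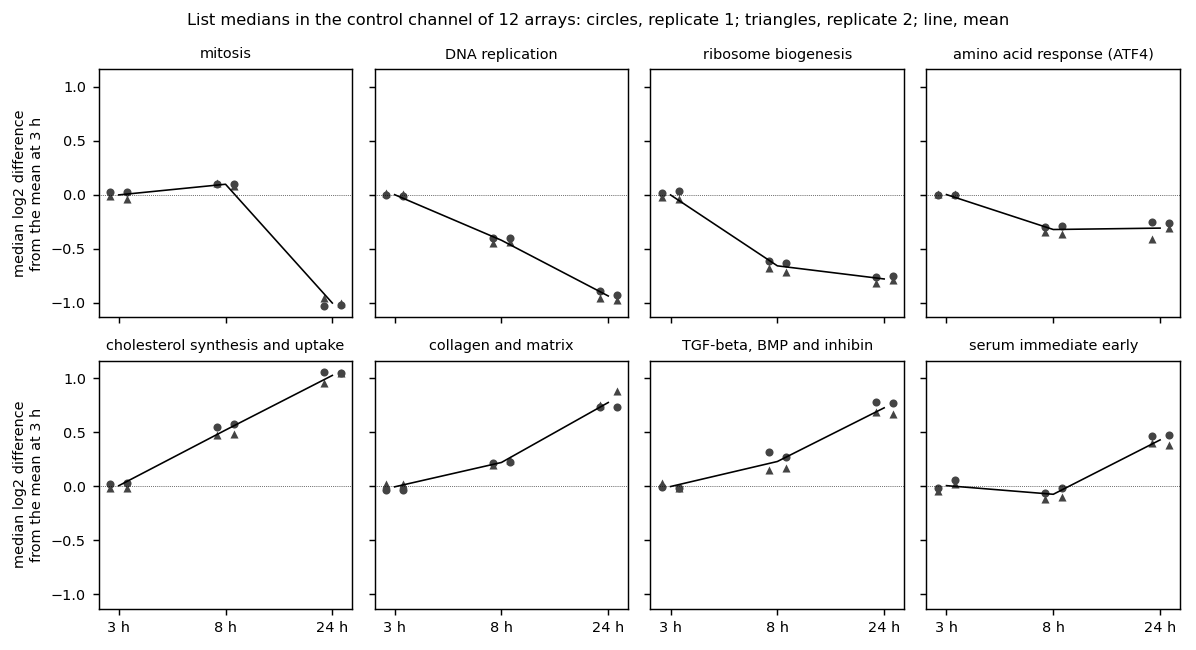
Median over the members of 8 gene lists of the log2 level relative to the gene's mean at 3 h (y axis) at 3, 8 and 24 h (x axis), 1 point per control channel. Mitosis genes stay at the 3 h level at 8 h and lie between -1.03 and -0.96 at 24 h, whereas ribosome biogenesis genes already lie between -0.71 and -0.62 at 8 h.

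Regulators of the cell cycle did not move as a group. Of 16 tested inhibitors and D-type cyclins 5 rose and 8 fell. The CDK inhibitors Cdkn1a (-0.53 ± 0.05) and Cdkn2d (-0.47 ± 0.06) were lower at 24 h, while Cdkn1b, an inhibitor known from quiescent cells, was higher (0.55 ± 0.19). With arrays averaged by pool the call of Cdkn1b was lost. Of the D-type cyclins, Ccnd3 rose by 0.82 ± 0.06 and Ccnd2 by 0.65 ± 0.20, and the call of Ccnd2 was also lost with arrays averaged by pool. The growth arrest gene Gas6, a secreted ligand of AXL, rose most (2.31 ± 0.04), and Gas2, which binds actin, fell most (-1.09 ± 0.08). Of 21 p53 targets 7 rose and 14 fell. The p53 inhibitor Mdm2 (-0.54 ± 0.05), the death genes Bbc3 (-0.77 ± 0.08) and Bax (-0.72 ± 0.06) and the metabolic regulator Tigar (-1.38 ± 0.07) were lower. Plk3 (1.5 ± 0.16) and the death receptor Fas (1.15 ± 0.04) were higher.

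Cholesterol synthesis and uptake genes were higher at 24 h. Of 23 tested members 22 rose, 13 of them over 2-fold, and 1 fell, with a median of 1.06 (0.97 to 1.07). In all genes 35.3% rose. Tm7sf2, a sterol reductase, lay at 8.72, 8.91, 8.68 and 8.92 at 3 h, 9.96, 10.01, 9.92 and 10.01 at 8 h and 11.92, 11.74, 11.84 and 11.72 at 24 h, with a difference of 3.0 ± 0.08 (adjusted p = 8.15e-07), the most in the list. All 24 h values were above all 3 h values. Increases ran through the pathway. In the mevalonate branch, Hmgcs1 rose by 0.81 ± 0.03, Mvd by 1.21 ± 0.07 and Fdps by 1.18 ± 0.04, and in the sterol branch the squalene epoxidase Sqle by 0.91 ± 0.05 and the demethylase Cyp51 by 1.13 ± 0.06. Acat2, which makes acetoacetyl-CoA, rose by 1.85 ± 0.09 and the sterol carrier Stard4 by 1.51 ± 0.07. Insig1, which retains SREBP in the endoplasmic reticulum, rose by 1.33 ± 0.03. Ebp, a sterol isomerase, was the exception (-0.16 ± 0.04), and it was not called with arrays averaged by pool. At 8 h the median stood 0.54 above 3 h. With channels set to the same median, the list median at 24 h was 0.65.

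The sterol response element TCACNCCAC was found in 1 of 15 promoters of the list (6.67%), against 1.22% of all genes. The CCAAT letters, known as the site of NF-Y, were found in 14 of 15 (93.3%), against 37.5%. Binding of NF-Y or SREBP was not measured. The promoter of Tm7sf2, chr19:6067851-6068100 on the minus strand, is shown because the gene rose most in its list. Capitals mark the CCAAT match, read here on the opposite strand.
Tm7sf2: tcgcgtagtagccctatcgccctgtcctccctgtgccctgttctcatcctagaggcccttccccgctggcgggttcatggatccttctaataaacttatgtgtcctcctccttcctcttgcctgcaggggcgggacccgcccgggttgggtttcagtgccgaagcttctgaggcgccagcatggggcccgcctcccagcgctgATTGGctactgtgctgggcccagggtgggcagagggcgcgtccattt

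Most fatty acid genes differed by less than 2-fold. Of 13 tested genes of fatty acid synthesis 8 rose and 1 fell, with a median of 0.25. The stearoyl-CoA desaturase Scd1 rose by 1.13 ± 0.04, the acetyl-CoA synthetase Acss2 by 0.87 ± 0.19 and the ATP citrate lyase Acly by 0.69 ± 0.04, and the acyltransferase Gpam fell (-0.80 ± 0.08). Of 20 genes of fatty acid oxidation and PPAR targets 12 rose and 2 fell, with a median of 0.28. Pdk4, which holds back glucose oxidation, peaked at 8 h: it lay at 8.10, 8.37, 8.05 and 8.52 at 3 h, 10.99, 11.11, 10.94 and 11.11 at 8 h and 10.24, 10.51, 10.30 and 10.54 at 24 h. Angptl4, a secreted inhibitor of lipoprotein lipase, rose by 1.54 ± 0.03. The medians of both lists turned negative, at -0.16 for synthesis and -0.05 for oxidation, when channels were set to the same median, so no direction is given for the lists as wholes.

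Genes of the extracellular matrix were higher at 24 h. Of 35 tested collagen and matrix genes 29 rose, 13 over 2-fold, and 2 fell, with a median of 0.73 (0.70 to 0.80), or 0.298 with channels set to the same median. Fmod encodes fibromodulin, a small leucine-rich proteoglycan that binds collagen, and lay at 10.45, 10.62, 10.38 and 10.67 at 3 h, 11.85, 11.76, 11.83 and 11.73 at 8 h and 13.63, 13.50, 13.61 and 13.58 at 24 h, with a difference of 3.05 ± 0.08. All 3 times were apart for this gene. The related proteoglycan genes Lum, Dcn and Ogn rose by 1.42 ± 0.04, 1.19 ± 0.27 and 1.03 ± 0.06. Of the collagens, Col11a1 rose by 2.46 ± 0.06, Col6a1 by 1.27 ± 0.05 and Col6a2 by 1.54 ± 0.06. The crosslinking enzyme Loxl1 rose by 2.35 ± 0.06 and the thrombospondins Thbs1 and Thbs2 by 2.30 ± 0.05 and 1.56 ± 0.06. The fibrillar collagens Col1a1 (0.22 ± 0.09) and Col3a1 (-0.05 ± 0.24) did not pass the test, and Nid1, which links the basement membrane, fell (-0.70 ± 0.05). Col1a1 and Col3a1 lay at 16.72 and 16.73 at 3 h, near the top of the signals, where a change may be compressed.

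Matrix proteases and their inhibitors went both ways. Of 21 tested members 15 rose and 5 fell, 7 and 3 of them over 2-fold, with a median of 0.62, or 0.189 with channels set to the same median. The stromelysins Mmp3 (-3.03 ± 0.05) and Mmp10 and the urokinase Plau (-1.33 ± 0.15) fell, as did the inhibitor Timp1 (-0.68 ± 0.04). Mmp3 lay at 10.02, 9.99, 10.02 and 9.95 at 3 h, 8.15, 8.01, 8.13 and 8.00 at 8 h and 7.06, 6.98, 6.94 and 6.88 at 24 h, with no overlap between times. Of the proteases that rose, the gelatinase genes Mmp2 and Mmp9 did so by 0.65 ± 0.05 and 1.90 ± 0.10, the membrane protease Mmp14 by 1.36 ± 0.05 and the aggrecanases Adamts1 and Adamts5 by 2.56 ± 0.06 and 1.95 ± 0.05. The inhibitors Timp2, Timp3 and Timp4 rose by 0.68 ± 0.06, 0.62 ± 0.04 and 1.04 ± 0.33, and the call of Timp4 was lost without the replicate number in the fit.

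Growth factor genes of the TGF-beta and BMP families were mostly higher. Of 28 tested members 20 rose, 9 over 2-fold, and 6 fell, with a median of 0.73 (0.61 to 0.70 over the same-slide pairs), or 0.389 with channels set to the same median. Among ligands, Tgfb2 rose by 1.42 ± 0.04, Tgfb3 by 1.88 ± 0.04 and Bmp4 by 0.71 ± 0.05, and Tgfb1 fell (-0.51 ± 0.07). Among extracellular antagonists and binding proteins, Fst, which traps activin, rose by 1.46 ± 0.05, Grem1 by 1.15 ± 0.28 (not called with arrays averaged by pool) and Ltbp2 by 2.43 ± 0.05, and Ltbp1 fell (-1.46 ± 0.04). The BMP target genes Id1, Id2 and Id3, inhibitors of helix-loop-helix factors, rose by 2.07 ± 0.07, 1.71 ± 0.04 and 2.87 ± 0.05. The inhibitory Smad6 rose by 1.24 ± 0.03, and Id4 fell (-0.55 ± 0.04). Id3 lay at 10.95, 11.03, 10.98 and 10.98 at 3 h, 13.40, 13.26, 13.28 and 13.30 at 8 h and 13.89, 13.76, 13.92 and 13.83 at 24 h, so most of its increase came before 8 h. Inha, the inhibin alpha subunit made by Leydig and Sertoli cells, rose by 0.65 ± 0.10, a call lost with arrays averaged by pool. Inhba differed by 0.09 ± 0.09 and did not pass.

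Of 12 tested IGF system genes 8 rose and 4 fell, with a median of 0.67, or 0.279 with channels set to the same median. The ligand Igf1 rose by 1.35 ± 0.04, its receptor Igf1r by 1.19 ± 0.16 and the clearance receptor Igf2r by 2.63 ± 0.10. Among binding proteins Igfbp7 rose by 0.99 ± 0.07, while Igfbp5 (-0.77 ± 0.06) and Igfbp6 (-0.37 ± 0.06) fell.

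Many immediate early genes were higher at 24 h than at 3 h, some of them by large amounts. Of 30 tested members 20 rose, 4 over 2-fold, and 6 fell, with a median of 0.45 (0.39 to 0.47) against -0.11 at 8 h. With channels set to the same median, the median at 24 h was 0.119. Egr1, a zinc finger factor induced by growth factors through ERK, lay at 8.95, 9.09, 9.05 and 9.16 at 3 h, 11.52, 11.50, 11.53 and 11.41 at 8 h and 13.05, 13.11, 12.88 and 12.93 at 24 h, with a difference of 3.93 ± 0.09 (adjusted p = 5.1e-07). It rose in both intervals without overlap. Fos rose by 1.96 ± 0.04, Egr2 by 1.88 ± 0.05 and Jun by 0.89 ± 0.03. Dusp6, the phosphatase that turns ERK off, rose by 2.83 ± 0.06. Fosl1, a Fos family member also induced through ERK, went the other way, at 10.91, 10.80, 10.92 and 10.83 at 3 h, 9.41, 9.31, 9.29 and 9.10 at 8 h and 8.06, 7.97, 8.04 and 7.90 at 24 h, with a difference of -2.87 ± 0.03. Nr4a2 (-0.87 ± 0.06) and Klf4 (-0.49 ± 0.05) also fell.

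Targets of YAP and TEAD, which respond to cell spreading and contact, were divided. Of 16 tested members 9 rose and 6 fell, and the list median of 0.38 was -0.03 when channels were set to the same median. Ccn1, a matricellular protein listed as Cyr61 on the array, lay at 10.08, 10.05, 10.22 and 10.09 at 3 h, 11.20, 11.23, 11.36 and 11.33 at 8 h and 13.82, 13.95, 13.79 and 13.91 at 24 h, with a difference of 3.76 ± 0.07. Ccn2, listed as Ctgf, rose by 1.17 ± 0.11, and Amotl2 (0.96 ± 0.04) and Lats2 (0.72 ± 0.04), which hold YAP back, rose. The receptor Axl fell (-0.77 ± 0.04). Of 19 actin and smooth muscle genes 6 rose and 8 fell. The contractile marker Tagln peaked at 8 h, at 11.91, 12.04, 11.92 and 12.07, from 11, 11.17, 11.05 and 11.11 at 3 h, and fell to 9.31, 9.35, 9.38 and 9.27 at 24 h, while Cnn1 (0.88 ± 0.06) and Cald1 (0.85 ± 0.10) rose.

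Chemokine, cytokine and NF-kB genes were mostly higher. Of 29 tested members 22 rose, 8 over 2-fold, and 3 fell, all 3 over 2-fold, with a median of 0.62 (0.49 to 0.69). The chemokine genes Ccl2 and Ccl11 rose by 1.13 ± 0.08 and 1.47 ± 0.05, and Cxcl16 and Cx3cl1 by 1.87 ± 0.09 and 2.4 ± 0.08. The macrophage growth factor Csf1 rose by 1.36 ± 0.03, the RANK ligand Tnfsf11 by 2.2 ± 0.09 and the NF-kB inhibitor Nfkbia by 1.02 ± 0.10. The cytokine Il33 (-2.33 ± 0.13) and its receptor Il1rl1 (-2.74 ± 0.07) fell, along with Spp1. Of 37 interferon-inducible genes 24 rose, 10 over 2-fold, and 9 fell, with a median of 0.38 (0.38 to 0.43), or 0.175 with channels set to the same median. Ifit1, an antiviral protein that binds foreign RNA, lay at 5.83, 5.87, 5.80 and 5.64 at 3 h, 6.92, 7.13, 6.89 and 7.21 at 8 h and 8.25, 8.59, 8.18 and 8.57 at 24 h, with a difference of 2.61 ± 0.12 (adjusted p = 3.72e-06). The times did not overlap. Ifi44 rose by 3.04 ± 0.17, Ifi27l2a by 2.33 ± 0.07, the RNA sensor Ifih1 by 2.02 ± 0.12 and Irf7 by 1.14 ± 0.25. By its brightest probe Oas2 was at least 7.39-fold higher, while another Oas2 probe was above background on no array of either time (1.79 at 3 h, 1.5 at 24 h). Irf1 (-0.32 ± 0.04) and the proteasome subunit Psmb8 (-0.43 ± 0.06), which are known to respond to interferon gamma, fell.

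Interferon-induced genes carry the ISRE. The letters GAAANNGAA were found in 16 of 30 promoters of the list (53.3%), against 8.18% of all genes. The promoter of Ifit1, chr19:34640639-34640888 on the plus strand, is shown because this gene had the second largest increase among list members above background at both times. Capitals mark 3 matches, read on the opposite strand, of which the first pair overlaps.
Ifit1: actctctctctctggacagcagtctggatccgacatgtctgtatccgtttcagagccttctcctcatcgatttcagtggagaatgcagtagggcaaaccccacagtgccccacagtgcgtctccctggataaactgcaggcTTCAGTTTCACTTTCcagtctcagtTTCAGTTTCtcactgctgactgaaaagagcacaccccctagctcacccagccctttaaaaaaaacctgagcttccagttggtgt

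Genes of the response to oxidants went both ways, more of them down. Of 26 tested members of the oxidative stress, glutathione and metallothionein list 14 fell, 7 over 2-fold, and 6 rose, with a median of -0.26 (-0.43 to -0.23). The members with the largest decreases are known targets of NRF2, though some members that rose are known targets too. Nqo1, a quinone reductase, lay at 14.62, 14.46, 14.60 and 14.50 at 3 h, 15.07, 15.09, 15.07 and 15.12 at 8 h and 12.66, 12.56, 12.64 and 12.57 at 24 h, with a difference of -1.94 ± 0.03 (adjusted p = 3.19e-07). All 8 h values were above the 3 h values, and all 24 h values were below them. Both subunits of the enzyme that limits glutathione synthesis fell, Gclc by 1.81 and Gclm by 1.55. Gclm lay at 12.61, 12.54, 12.61 and 12.58 at 3 h, 11.92, 11.97, 11.96 and 12.03 at 8 h and 11.03, 11.10, 11.05 and 10.98 at 24 h, falling in both intervals. Srxn1 (-1.62 ± 0.03), the heme oxygenase Hmox1 (-1.31 ± 0.04), the glutathione reductase Gsr (-1.15 ± 0.06) and Txnrd1 (-1.07 ± 0.06) fell as well. Nfe2l2, which encodes NRF2, was higher by 0.27 ± 0.04, but it was not called with arrays averaged by pool and was lower, at -0.22, with channels set to the same median. The metallothioneins Mt1 (0.11 ± 0.14) and Mt2 (-0.06 ± 0.32) did not pass the test. Gstm1 (1.09 ± 0.05) and Gstm2 (1.05 ± 0.04), similar genes whose probes may share transcripts, rose, and both are also known targets of NRF2.

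The antioxidant response element TGACNNNGC was found in 6 of 20 promoters of the list (30%), against 11.5% of all genes. The promoter of Gclm, chr3:122245307-122245556 on the plus strand, is shown as a member with a match and a fall in both intervals. Capitals mark the match, read on the opposite strand.
Gclm: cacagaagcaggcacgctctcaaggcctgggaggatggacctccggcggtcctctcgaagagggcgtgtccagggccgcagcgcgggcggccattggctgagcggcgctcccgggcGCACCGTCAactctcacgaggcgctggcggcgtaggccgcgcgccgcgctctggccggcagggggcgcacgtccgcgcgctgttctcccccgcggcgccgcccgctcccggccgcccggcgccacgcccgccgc

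Other stress responses were lower in part. Of 34 ATF4 and amino acid response genes 19 fell and 12 rose, with a median of -0.31 that was already -0.31 at 8 h. The genes that fell were mostly those of serine and one-carbon metabolism, such as Shmt2 (-1.16 ± 0.06) and Psat1 (-0.75 ± 0.05), tRNA synthetases such as Wars (-0.88 ± 0.04) and transporters such as Slc7a11 (-0.76 ± 0.05). The stress factors Ddit3 (0.56 ± 0.04), Trib3 (0.60 ± 0.08) and Chac1 (0.65 ± 0.04) rose. Of 17 heat shock genes 10 fell and 3 rose, with Hspa4l (-1.83 ± 0.03) and Hsph1 (-1.16 ± 0.05) lowest and the co-chaperone Bag3 highest (0.72 ± 0.05). Of 20 endoplasmic reticulum chaperone genes 13 rose and 1 fell, none over 2-fold, and the median of 0.26 was -0.11 when channels were set to the same median. Xbp1 (0.87 ± 0.05) and Pdia4 (0.70 ± 0.04) had the largest increases of that list.

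Lists of clock, hypoxia and lysosome genes held changes in both directions. Of 19 clock genes 10 rose and 8 fell, with a median of 0.22 that was -0.15 when channels were set to the same median. Hlf, a clock output factor, lay at 11.44, 11.30, 11.39 and 11.35 at 3 h, 9.39, 9.27, 9.42 and 9.28 at 8 h and 9.22, 9.07, 9.18 and 9.02 at 24 h. Its arrays at 8 h were already near the 24 h level. The repressors Nr1d1 (-0.87 ± 0.08), Nr1d2 (-0.72 ± 0.05) and Cry1 (-0.84 ± 0.05) fell. Per1 rose by 0.65 ± 0.08, Per2 by 0.92 ± 0.06, and the activator Rora by 1.53 ± 0.09. Of 33 hypoxia and glycolysis genes 14 rose and 10 fell. The carbonic anhydrase Car9 rose by 2.95 ± 0.07, the aldolase Aldoc by 2.94 ± 0.05 and the glucose transporter Slc2a3 by 1.75 ± 0.35. Pfkfb3, a regulator of glycolysis (-1.44 ± 0.06), the oxygen sensor Egln3 (-1.04 ± 0.04) and Car12 (-1.03 ± 0.08) fell. The median was 0.03, or -0.36 with channels set to the same median. Of 35 lysosome and autophagy genes 22 rose and 5 fell, with a median of 0.34 that was -0.03 under that setting. The acid lipase Lipa rose by 1.25 ± 0.03, the glucosidase Gaa by 1.08 ± 0.06 and Psap by 1.05 ± 0.04, and the galactosidase Gla fell (-1.24 ± 0.04).

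The labelled cell type was checked against its markers. Of 13 Leydig cell markers 7 were well above background on all 8 control channels, while Cyp11a1, Hsd3b1, Hsd3b6, Hsd17b3 and Lhcgr, which define steroid synthesis and its luteinizing hormone control, were not on any of them. Insl3, a peptide hormone of Leydig cells (1.33 ± 0.07), and the transcription factor Gata4 (1.51 ± 0.07) rose. Cyp17a1, of androgen synthesis, differed by -0.25 ± 0.05, a call lost with arrays averaged by pool. Star, the cholesterol carrier into mitochondria, differed by -0.19 ± 0.08 and did not pass. The summed linear signal of the Leydig list was 17585 to 17998 at 3 h and 20485 to 21549 at 24 h. This sum mostly reflects Fdx1, Scarb1 and Fdxr, at 12.8, 12.4 and 12.2 at 3 h, against 8.0 for Insl3. In RNA of a whole culture, fewer cells that express a gene and less RNA of it per cell cannot be told apart.

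Markers of other cells moved too. The summed signal of 10 Sertoli markers went from 9323 to 10430 at 3 h to 16484 to 17479 at 24 h, with Sox9 (1.58 ± 0.05), Trf (1.72 ± 0.07) and Clu (1.30 ± 0.06) higher and Amh not above background on any array. This sum mostly reflects Wt1, at 12.85 at 3 h, which rose by 0.58 ± 0.03. Rhox5 (0.42 ± 0.20) and Gata1 (0.21 ± 0.18) did not pass the test. Dhh, Fshr and Gdnf, above background on at most 1 array of a time, were not tested. The fibroblast sum was 452181 to 516992 at 3 h and 527080 to 626150 at 24 h, and the peritubular myoid sum 20059 to 21828 and 23392 to 26576. The myoid sum mostly reflects Acta2, at 14.02 at 3 h. Of 5 tested myoid markers 3 rose, among them Des, which passed the filter through the 24 h arrays alone. The other 2 fell, Tagln by 1.76 and Actg2 by 0.16 on the log2 scale. Of 5 macrophage markers on the array, Adgre1, Ptprc and Itgam were above background on none of the 8 channels, while Lyz2, a lysozyme, rose by 2.98 ± 0.05 and Cd14 by 0.57 ± 0.05. The summed signal of that list was 747 to 835 at 3 h and 2030 to 2150 at 24 h. Of 6 endothelial markers, Pecam1, Cdh5 and Kdr were above background on none, and Flt1, a VEGF receptor, rose by 2.82 ± 0.18, with list sums of 35.9 to 125 and 213 to 294. Tek (2.04 ± 0.97) and Emcn (2.26 ± 1.85), each above background on 1 array at 3 h, did not pass the test. The germ cell sum was 1686 to 1943 at 3 h and 788 to 961 at 24 h. Most of it came from the germline helicase Ddx4 (10.56 at 3 h, against 6.73 for Acr), which fell (-1.26 ± 0.06). Of 6 tested germ cell markers 3 fell, none rose and 3 did not pass, among them Sycp3 at 0.95 ± 0.54. Stra8, not tested, was above background on no 3 h array and on 3 arrays at 24 h. The part of such cells in the results was not tested.

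Time differences in the MAA channels of the same arrays are given beside those of untreated cells, with no test, since both channels share spots. The medians of the mitosis list were -1.05 in untreated cells, -1.06 in cells with 1 mM MAA and -1.03 with 5 mM. Those of cholesterol genes were 1.06, 1.19 and 0.99. Interferon-inducible genes had medians of 0.38, 0.68 and 0.82, and ribosome biogenesis genes -0.77, -0.91 and -1.16. Single genes diverged further. Cyp1a1 differed by -4.97 in untreated cells, -5.31 with 1 mM and -1.41 with 5 mM. For Ifit1 these differences were 2.61, 4.29 and 5.58, and for Spp1 -3.59, -3.0 and -1.34.

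**Figure D5:**
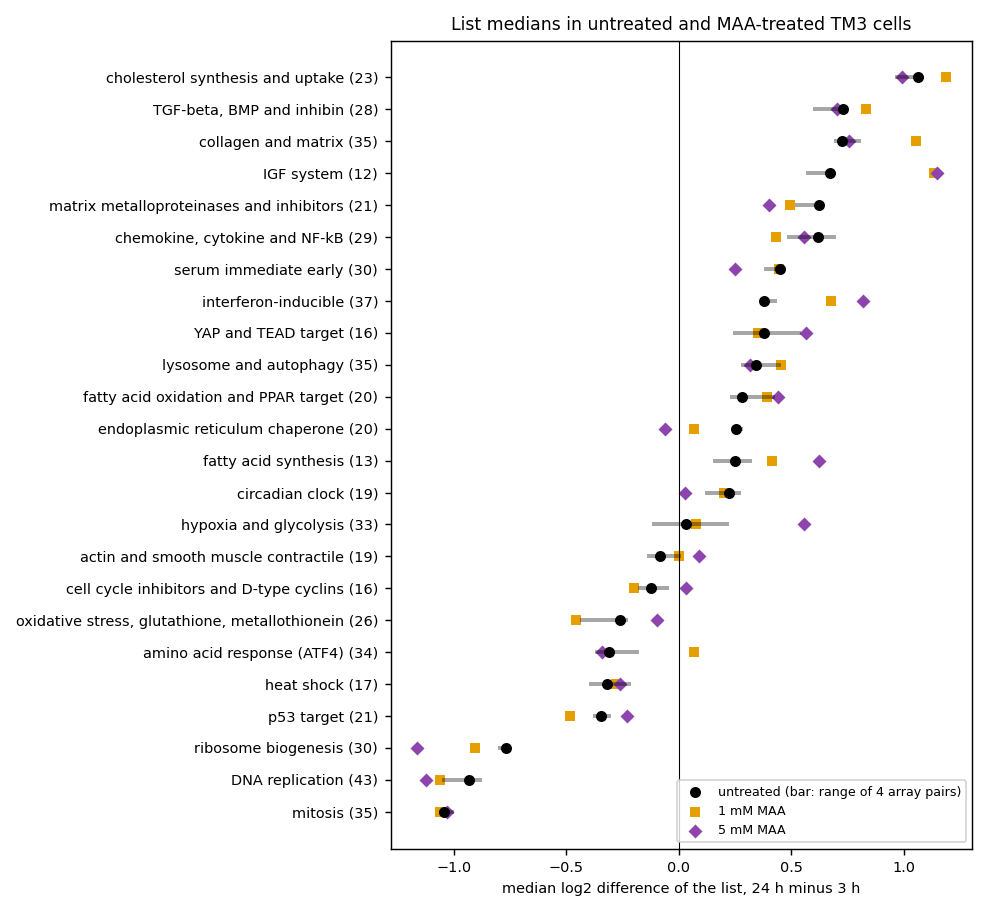
Median log2 difference between 24 h and 3 h of each pathway list in untreated cells and in cells with 1 mM or 5 mM MAA (x axis, log2), 1 row of points per list. The mitosis medians lie between -1.06 and -1.03, while those of the interferon list are 0.38, 0.68 and 0.82.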

How the data were processed

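Untreated TM3 cells were measured on 12 two-colour Agilent arrays, of which the 8 at 3 h and 24 h entered the comparison. The authors extracted the scans with Feature Extraction 9.5.3.1, and the deposited signal intensities are background-subtracted and dye-normalized within each array. The deposited log ratios of MAA over control were not used. From the intensities, log2 signals of all 24 channels were quantile-normalized together. Control spots (1639 of 45018 per array) and outlier spots (124 to 208 per array) were left out, and repeated spots were averaged to 41174 probes. Spots flagged as saturated were kept, so changes at the highest signals may be compressed. Probes well above background in the control channel on at least 4 of 8 arrays were tested with limma 3.58.1 in R 4.3.3 (data.table version 1.17.8, jsonlite 2.0.0), with time and replicate number, which is also the dye, as fixed terms and the pool as a random block (consensus correlation 0.395, 5 residual and 1.33 prior degrees of freedom). P-values were adjusted by the Benjamini-Hochberg method over 27186 probes, and a gene was represented by its brightest probe. Symbols were found for 22147 probes, 22072 of them through an accession. The number of arrays and pools limits the precision. Replicate 1 minus replicate 2 correlated by 0.23 over probes between 3 h and 24 h. Figures were drawn with Python 3.11.15 and matplotlib 3.10.9, and the steps were tested on simulated data.

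The genes named are the 10 with the largest increase and the 10 with the largest decrease among those above background and apart on all 8 channels, up to 4 in each direction seen at 1 time only, and in each list its main genes and the 2 called members with the largest change in each direction. Not all of these are given, some genes are not reported here, and other list members were chosen after their values were seen. The comparison, the members and the lists were chosen with earlier results of these data known. Alternatives covered the normalization, background correction, dim-probe filter, outlier spots, replicate and slide blocks, pools, samples, threshold, probe choice and each array left out.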

Additional observations from a re-analysis of the deposited data

Results flagged for a closer look

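In 12 of 448 groups of 4 control channels of the named genes, 1 array lay far from the other 3, by a test that chance alone passes in about 1 in 20 groups. At 24 h these were Igfbp7 at 15.59 on the 1 mM array replicate 2 (others 15.77 to 15.78), Col6a1 at 15.75 on 5 mM replicate 2 (15.86 to 15.88) and Gsr at 12.94 on 5 mM replicate 1 (13.01 to 13.03). Ebp lay at 12.83 on 1 mM replicate 2 (12.76 to 12.77), Loxl1 at 12.62 on 1 mM replicate 1 (12.56 to 12.57) and Cmbl at 11.76 on 5 mM replicate 1 (11.82 to 11.83). On that last array Gas2 lay at 5.91 (6.09 to 6.1), Flt1 at 7.73 (7.21 to 7.27) and Oas2 at 6.85 (6.66 to 6.68). Gsta2 lay at 2.93 on 1 mM replicate 1 (3.75 to 3.82), near background. At 3 h, Mmp2 lay at 12.42 on 5 mM replicate 2 (12.54 to 12.56) and Cxcl16 at 5.22 on 1 mM replicate 1 (4.95 to 4.98).

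For some genes all 4 pairs of untreated arrays moved one way between 3 h and 24 h and both MAA arrays of a dose the other way, a difference that was not tested. Igfbp5, which binds IGFs, was lower by 0.77 on the log2 scale in untreated cells and changed by 1.6 with 1 mM and 2.01 with 5 mM MAA. Nr1d2, a clock repressor that fell in untreated cells, changed by 0.09 with 1 mM and 0.22 with 5 mM. With 5 mM MAA, Klf4 changed by 0.19 and Tgfb1 by 0.11, against decreases in untreated cells, and Per1 by -0.28, Cd14 by -0.25 and Nfe2l2 by -0.06, against increases. With 1 mM MAA, Psmb8 changed by 0.1 and Cdkn1b by -0.18, also opposite to untreated cells.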

How the results depend on the processing

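The balance of higher and lower depended on the scaling. With channels set to the same median, 5783 probes were called higher and 13665 lower (9005 and 9739 in the main setting), and over 2-fold 1970 were higher and 2975 lower (2367 and 1713), so that the balance over 2-fold was reversed. All 24 list medians were then lower. Those of 7 lists turned negative, at -0.027 for YAP targets, -0.153 for clock, -0.108 for endoplasmic reticulum, -0.054 for fatty acid oxidation, -0.16 for fatty acid synthesis, -0.355 for hypoxia and -0.033 for lysosome genes. So did Nfe2l2, at -0.216. The other 17 medians kept their sign. Decreases grew to -1.208 for ribosome biogenesis, -0.707 for ATF4, -0.715 for heat shock, -0.714 for oxidative stress, -0.704 for p53, -0.503 for cell cycle inhibitor and -0.436 for actin genes, and increases shrank to 0.65 for cholesterol, 0.119 for immediate early, 0.175 for interferon, 0.298 for matrix and 0.189 for metalloproteinase genes. With normexp background correction, which adds an offset and so compresses dim signals, 1049 probes were over 2-fold higher and 869 over 2-fold lower. The 1 mM arrays alone, 2 against 2, called 5494 higher and 6238 lower, and the 5 mM arrays alone 5450 and 6263, with fewer samples. Leaving out each array in turn gave 8628 to 9089 higher and 9455 to 9781 lower. Without single arrays of replicate 2, calls were lost for Cdkn1b (0.481 to 0.526), Ccnd2 (0.587 to 0.603) and Orc6 (-0.119). Calls were gained without single arrays for Star, Col1a1, Mt1 and Tsr1. Without the replicate block 7416 were higher and 7923 lower, with the slide as a block 8722 and 9538, and with the 8 h arrays in the fit 8835 and 9475. Averaging arrays by pool gave 6160 and 7089. The cause of the shifts under median scaling was not tested.

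Each time was counted as 2 pools, and the labels do not say whether there were more or fewer. Probes dim at a time give only a lower limit of the fold. Within slide 1, and within slides 2 and 3, there was 1 replicate number, so values were computed without a test.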

Other observations

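Some gene families outside the lists also differed between 3 h and 24 h. These families were picked after their values were seen, so they are described without a test of their own. Over all genes tested, 35.3% were higher and 37.6% lower. Counts cover members above background on at least 1 array of each time, since a member measured at 1 time alone could pass the filter in 1 direction only. All 4 such flavin monooxygenases were higher at 24 h, among them Fmo2 at 3.30 ± 0.41. Of 6 carboxylesterases 4 were higher and 2 lower. Ces2c was higher by 3.68 ± 0.09 and Ces1g by 2.70 ± 0.07, although members of this family are alike in sequence and their probes may read the same transcripts. Of 17 aldehyde dehydrogenases 13 were higher and 3 lower, and Aldh1a1, which makes retinoic acid, was higher by 1.30 ± 0.07. Of 4 alpha glutathione S-transferases 2 were higher, Gsta3 by 2.4 ± 0.04 and Gsta1 by 1.71 ± 0.07, and 2 lower, Gsta2 and Gsta4 (-0.87 ± 0.04).

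Of 7 prolactin family genes 6 were lower at 24 h, with a median of -2.07. They include Prl3d1, a placental lactogen, which differed by -2.07 ± 0.08. Of 16 keratins 10 were lower and 3 higher. Krt8 and Krt18, partners in the filaments of simple epithelia, differed by -2.77 ± 0.12 and -1.06 ± 0.08. Krt8 had been 9.95 at 3 h and 10.47 at 8 h on the log2 scale, so that its level was lower only at 24 h. Of 6 sprouty and sprouty-related genes, inhibitors of receptor tyrosine kinase signalling, 3 were higher, Spry4 by 3.69 ± 0.05, Spry1 by 2.66 ± 0.05 and Spred1 by 0.52 ± 0.05, and the other members did not pass the test.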
